A study of Mus musculus with 12 samples.

Results

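The auditory nerve of P21 mice was compared with that of P14 mice, the last interval of a postnatal series that runs over P0, P3, P7, P10, P14 and P21. The 2 P21 arrays and the 2 P14 arrays were selected by the stage in their labels and are 4 of the 12 arrays of the series. All mice were untreated CBA/CaJ animals of either sex, 21 or 14 days old. What was sampled was the dissected modiolus, freed of its capsule and of much of the tissue around the cochlear duct, so the tissue was enriched for nerve and was not pure nerve. Per the labels the paired cochleas of a single mouse made 1 sample, 100 ng of total RNA was labelled by an assay that starts at the 3′ end of the transcript, and Affymetrix mouse 3′ expression arrays were hybridized. Values are log2 RMA signals, an array scale on which a difference of 1 is a doubling. They were compared between stages for the same probe set only. All mice of the 4 arrays were past the onset of hearing, and the comparison asks which transcripts still differed between P21 and P14.

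The modiolus is the bony core of the cochlea. Spiral ganglion neurons lie in its canal with their satellite cells, and their axons leave through it, wrapped by Schwann cells in the periphery and by oligodendrocytes once they enter the glial zone near the brainstem. Bone, the marrow within it, cartilage, fibroblasts, blood vessels and meninges can belong to the same block of tissue. In such bulk RNA, fewer cells of a type and less RNA per cell cannot be told apart.

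The 4 arrays carried strong nerve transcripts. Mbp, a core protein of compact myelin, measured 14.40 and 14.41 at P21 and 14.36 and 14.45 at P14, and Nefl, the light neurofilament of large axons, measured 13.68 and 14.00 at P21 and 13.83 and 13.86 at P14. Replicates correlated at 0.991 at P21 and 0.994 at P14, with 6.31% and 2.77% of probe sets over 1.5-fold apart. P14 replicate 1 stood apart in genes of blood-forming marrow and dividing cells, and P21 replicate 1 in genes of pigment cells and of the stria vascularis, as given below. Transcripts of the sex chromosomes did not follow the statement that an array is 1 mouse. Xist, transcribed from the inactive X chromosome, was high on all 4 arrays (13.09 and 13.29 at P21, 12.87 and 13.36 at P14), while the Y-linked gene Kdm5d was high on replicate 1 and low on replicate 2 of either stage (7.93 and 3.94 at P21, 7.82 and 3.34 at P14). Replicate 1 of either stage thus held transcripts of both sexes, in the same arrangement at P21 and P14. Where nothing more is known of the mice, the p-values measure the spread between these arrays.

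The balance of RNA also separated the stages. The 3′ control probe set of Actb exceeded the 5′ one by 2.32 and 2.03 log2 units at P21, against 1.08 and 1.41 at P14, and the 8 earlier arrays lay between 0.81 and 1.24. For Gapdh the excess was 1.65 and 1.37 at P21, against 0.46 and 0.68 at P14. Both P21 arrays lay above all other arrays in either gene. The poly-A spike RNAs added before labelling measured 9.50 and 9.74 at P21 and 9.03 and 9.31 at P14. The hybridization spikes, a separate set of controls, were higher at P21 too, at 10.34 and 10.42 against 9.88 and 9.94 at P14. With the Actb balance as a covariate in limma 0 probe sets were called, with 2372 at an unadjusted p under 0.05, and with the Gapdh balance 1 was, so stage and RNA balance cannot be told apart in these arrays and every call below carries that limit.

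**Figure D1:**
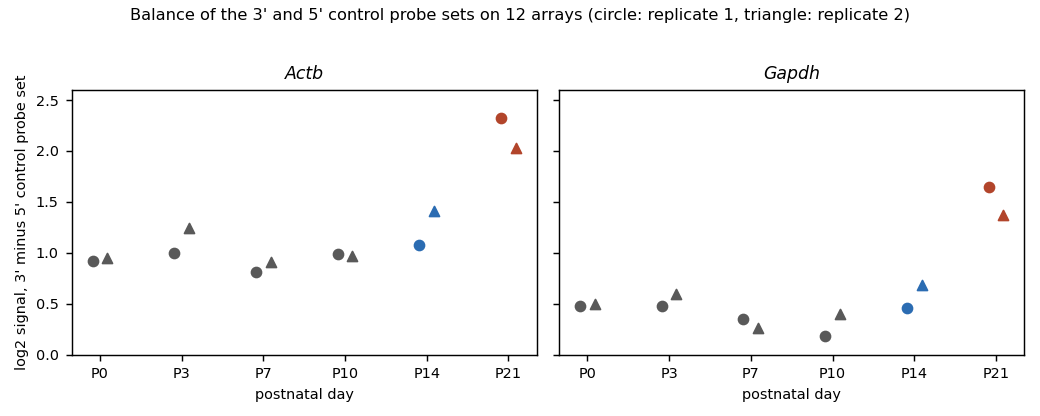
The log2 signal of the 3′ minus the 5′ control probe set (y axis) of Actb (left) and Gapdh (right) on the 12 arrays by postnatal day, with circles for replicate 1 and triangles for replicate 2. The P21 arrays, at 2.32 and 2.03 for Actb and 1.65 and 1.37 for Gapdh, lie above all others.

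Of 45037 probe sets, 1105 were called between P21 and P14 (2.45%), 325 higher at P21 (0.722%) and 780 lower (1.73%), where a call is an adjusted p under 0.05 by limma with Benjamini-Hochberg adjustment and a change over 1.5-fold, with the spread taken from all 12 arrays. With each gene read from its brightest probe set, 174 of 18193 genes were higher (0.956%) and 204 were lower (1.12%), 378 in all (2.08%). Lower calls made up 54% of the called genes but 85.3% of the calls among the 16752 other, dimmer probe sets of these genes. Of the lower genes with further probe sets, 35 of 117 had another one called lower, and of the higher genes 20 of 84 had another one called higher. The median change over all probe sets was 0.045 log2 units. When the arrays were instead shifted to the same poly-A spike signal, which was chosen after seeing the data, the median was -0.41 and the split was 54 higher and 4221 lower. Since the hybridization spikes were higher at P21 as well, the rise was not particular to the poly-A spikes. Whether this shift reflects the amount of RNA was not tested.

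P14 replicate 1 decided the number of calls. Without it 31 probe sets were called, and without P14 replicate 2 there were 1750, while 527 were called without P21 replicate 1 and 1583 without P21 replicate 2. Either P0 array, which enters only through the shared spread, also mattered, with 679 calls without it. A lone array of a stage was assumed in those fits to vary like the other stages. The 4 arrays on their own gave 0 calls after adjustment by limma and 7379 probe sets at an unadjusted p under 0.05, where the methods' test with the same fold limit gave 1001 unadjusted and 0 adjusted. Leaving out any of the 4 arrays reversed the sign of no call, which it cannot do where the arrays of the 2 stages do not overlap. All 31 probe sets, 8 higher and 23 lower, kept their call without each of the 4 arrays in turn, and they stood for 16 genes: Klk6, Dao, Per1 and Ppp1r1a were higher, and Col2a1, Col9a1, Col9a2, Col9a3, Fbn2, Adamts12, Mia, Umodl1, Oc90, Stfa3, Bzw2 and Cmtm2b were lower. Ppp1r1a, Adamts12, Mia, Bzw2 and Cmtm2b are named because they kept their call, after their values were seen.

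**Figure D2:**
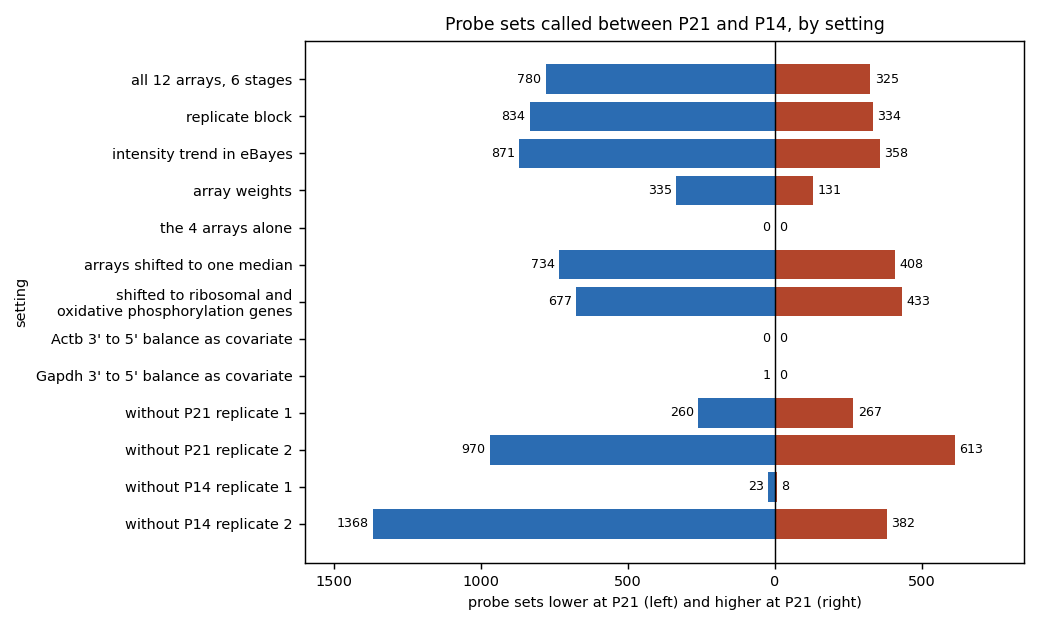
The number of probe sets called higher at P21 (right of 0) and lower at P21 (left of 0) under each way of fitting the P21 and P14 arrays, with the count beside each bar. The count fell to 31 without P14 replicate 1, to 0 with the Actb balance as a covariate and to 0 with the 4 arrays alone.

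Of 21 cartilage genes, 5 were called lower at P21, all of them collagen chains. Col2a1, the main fibrillar collagen of cartilage, which the tectorial membrane and otic capsule also contain, measured 11.42 and 11.70 at P21, against 13.46 and 13.28 at P14. It had changed little before that, with stage means between 13.13 and 13.70 from P0 to P10, and fell 3.51-fold (log2 change -1.81, SE 0.11, adjusted p = 0.000327). Col9a1, a chain of the collagen that decorates type II fibrils, measured 12.47 and 12.22 at P21 and 13.57 and 13.78 at P14 (log2 change -1.33, SE 0.11, adjusted p = 0.00196), and its second probe set fell by 2.29. The partner chains Col9a2 (8.33 and 8.64 at P21, 9.63 and 10.01 at P14) and Col9a3 (11.41 and 11.36 at P21, 12.20 and 12.60 at P14) fell by 1.33 and 1.01. Col11a1, which seeds type II fibrils, fell by 0.79. The arrays of the 2 stages did not overlap in any of these chains, as was true of 48% of all genes.

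These 5 lower calls, with 0 higher, among 21 genes stood against 1.12% and 0.956% of all genes, and the first 4 named kept their call without P14 replicate 1. The rest of the list did not follow them, and its median change was -0.18 log2 units, against 0.06 over all genes. Acan, the large aggregating proteoglycan, measured 10.21 and 10.57 at P21 and 9.62 and 9.55 at P14, and Sox9, the transcription factor that switches on chondrocyte genes, measured 10.10 and 9.87 at P21 and 9.45 and 9.71 at P14. Neither was called. Cnmd and Ucma, secreted products of chondrocytes, differed by 0.01 and -0.12 and remained bright, and Col10a1, the marker of hypertrophic chondrocytes, lay between 4.94 and 5.25 on the 4 arrays, at the dim end of the scale.

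**Figure D3:**
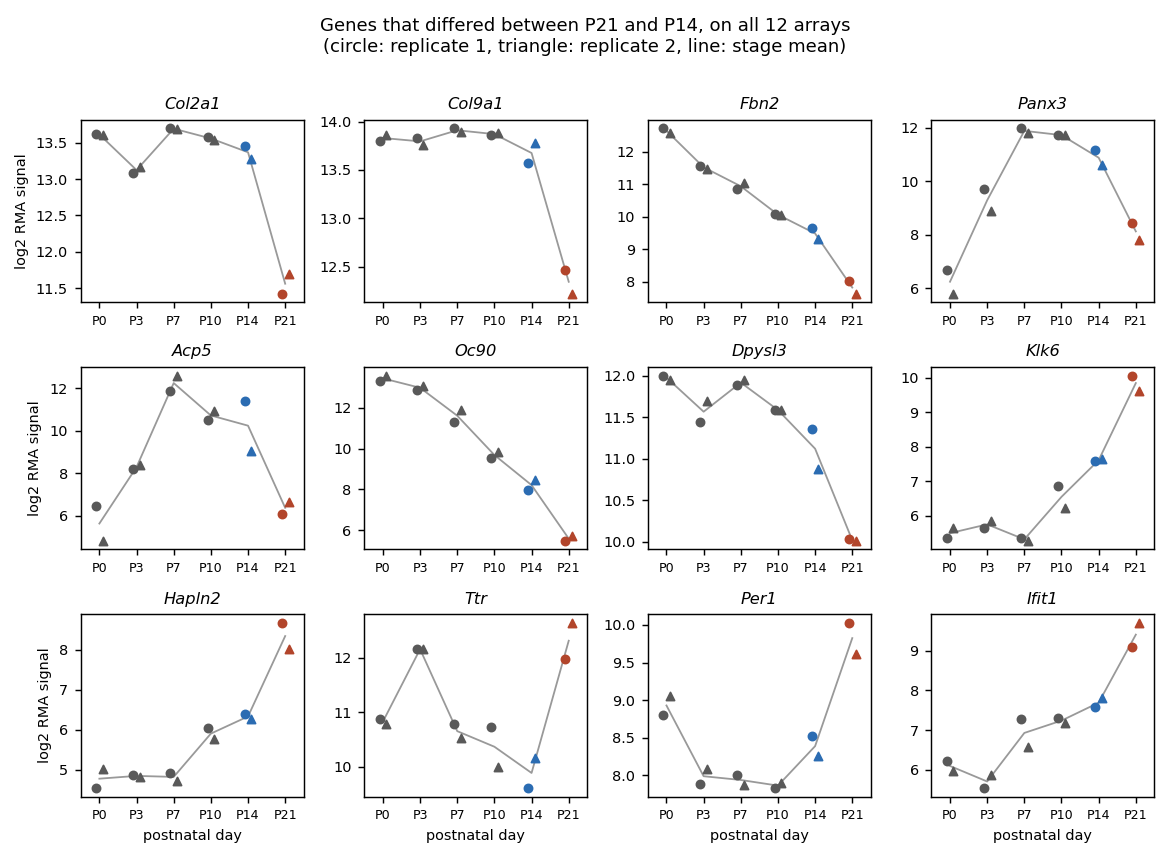
The log2 RMA signal (y axis) of 12 genes on all 12 arrays by postnatal day (x axis), with circles for replicate 1, triangles for replicate 2 and a line through the stage means. Col2a1 and Col9a1 were level until P14 and lower at P21, Fbn2 and Oc90 were lower at each later stage, and Panx3 and Acp5 had their highest mean at P7.

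Some genes of bone were lower as well, both of cells that build it and of cells that resorb it. Panx3, a channel of maturing osteoblasts, measured 8.43 and 7.81 at P21, against 11.16 and 10.60 at P14 (log2 change -2.76, SE 0.35, adjusted p = 0.00837), and Ifitm5, a membrane protein of mineralizing osteoblasts, fell by 1.55. Sp7, the transcription factor that commits cells to the osteoblast line, measured 9.01 and 8.55 at P21 and 10.01 and 9.39 at P14. These 3 were lower and 0 were higher among 15 osteoblast and osteocyte genes, against 1.12% and 0.956% of all genes. Products of the mature osteocyte differed less. Dmp1, a matrix protein of osteocytes, measured 13.70 and 13.60 at P21 and 13.67 and 13.69 at P14, and Sost, the osteocyte inhibitor of Wnt signalling, measured 10.65 and 10.25 at P21 and 10.01 and 9.36 at P14, without a call.

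Acp5, the acid phosphatase that marks osteoclasts, had 6.10 and 6.67 at P21, against 11.42 and 9.08 at P14 (log2 change -3.87, SE 0.68, adjusted p = 0.022). The P14 arrays themselves differed by more than 2 log2 units there, with replicate 1 the higher. Mmp9 and Ctsk, a matrix protease and the collagen-degrading cathepsin of osteoclasts, fell by 2.29 and 1.93, and Mmp13, the collagenase of hypertrophic cartilage and osteoblasts, fell by 3.87 (5.56 and 5.84 at P21, 10.50 and 8.64 at P14). Of 14 osteoclast genes 3 were lower and 0 higher, against 1.12% and 0.956% of all genes. The calls of Sp7, Ifitm5, Mmp9, Ctsk and Mmp13 were lost without either P21 array as well as without P14 replicate 1, and that of Acp5 without P21 replicate 1 too. Without P14 replicate 1 neither list kept a called member, and their medians were -0.33 and -0.08 in place of -0.64 and -0.27.

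Among 32 genes of fibrous matrix and fibroblasts, 6 were lower and 1 was higher, against 1.12% and 0.956% of all genes. The list's median change was -0.40. Fbn2, the fibrillin that dominates early microfibrils, measured 8.01 and 7.62 at P21, against 9.65 and 9.31 at P14 (log2 change -1.67, SE 0.15, adjusted p = 0.00229), and its mean had been 12.65 at P0. Col5a2 and Col5a1, chains of the collagen that starts fibrils, fell by 1.25 and 0.99, and Col3a1, an abundant fibrillar collagen, measured 12.85 and 12.76 at P21 and 13.58 and 13.59 at P14. Loxl1, a crosslinking oxidase, and Serpinh1, the chaperone of collagen folding, fell by 0.63 and 0.59. Their other probe sets were not called, with changes of 0.205 for Loxl1 and -0.225 for Serpinh1. Col3a1, Loxl1 and Serpinh1 are named to complete the list, after their values were seen. Fbln1, a fibulin bound to elastic fibres and basement membranes, went the other way, with 9.59 and 10.17 at P21 and 8.98 and 8.80 at P14. Its other probe sets changed by 0.045 and 0.325 without a call.

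Col1a1 and Col1a2, the chains of the collagen of bone and fibrous tissue, changed by -0.92 and -0.39 without a call, and Dcn and Lum, small proteoglycans of fibroblasts, by -0.38 and -0.54, also without a call. Col15a1 and Lamc1, a collagen and a laminin chain of basement membranes, were the 2 of 16 basement membrane genes called lower, against 1.12% of all genes. They changed by -0.94 and -0.68 (list median -0.48). Adamts12, a secreted metalloprotease, measured 7.45 and 7.40 at P21 and 9.41 and 9.11 at P14, and Mia, a secreted cartilage protein, measured 10.81 and 10.28 at P21 and 11.82 and 12.32 at P14. Without P14 replicate 1, Fbn2 alone of the fibrous matrix list kept its call.

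**Figure D4:**
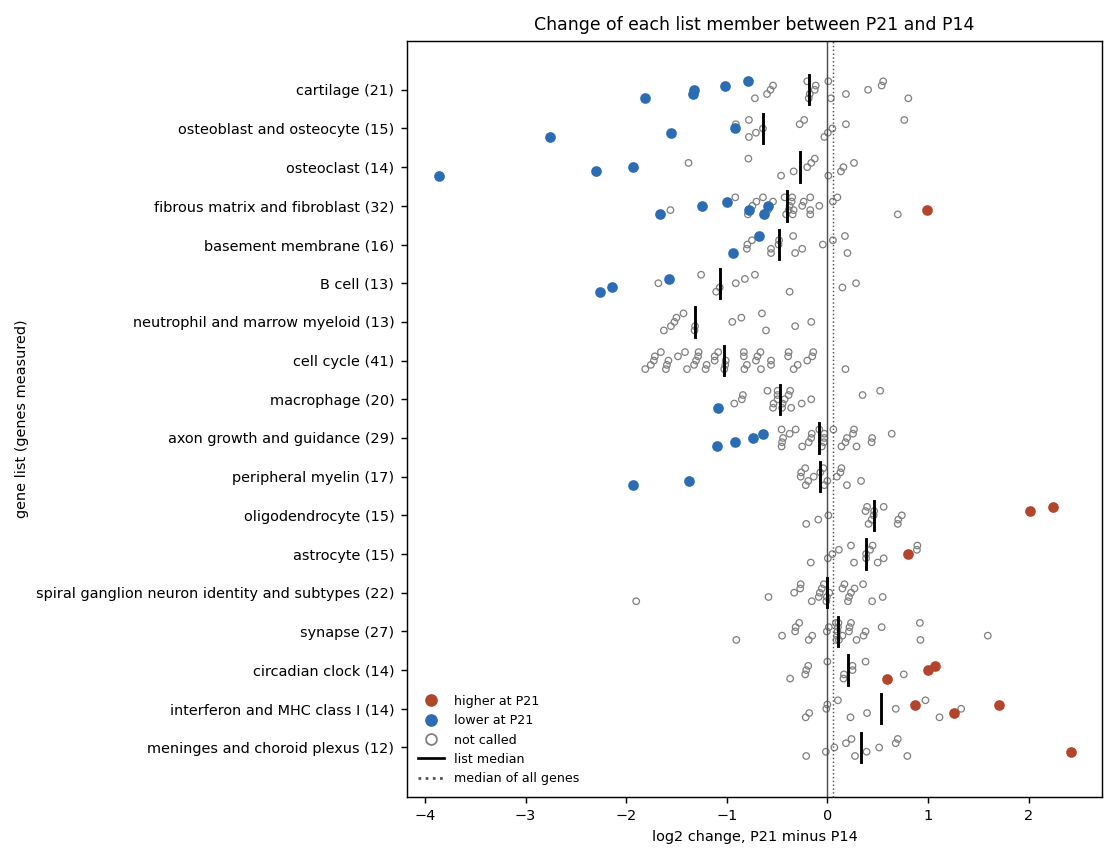
The log2 change between P21 and P14 (x axis, P21 minus P14) of every measured gene of 18 lists (y axis), with filled points for calls, open points for genes not called, a bar at each list's median and a dotted line at the median of all genes, 0.06. Lower calls were most numerous in the fibrous matrix (6), cartilage (5) and axon growth (4) lists, and higher calls in the clock (3), interferon (3) and oligodendrocyte (2) lists. Of all genes 1.12% were called lower and 0.956% higher.

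The marrow genes turned on the P14 arrays. Vpreb1 and Igll1, which form the surrogate light chain of B cell precursors, fell by 2.26 and 1.57, and Rag1, the recombinase of antigen receptor genes, fell by 2.14. Vpreb1 measured 7.18 and 6.84 at P21, against 9.89 and 8.65 at P14. The median of the 13 B cell genes was 6.99 and 6.29 on the P21 arrays, and 9.04 and 7.36 on the P14 arrays. Of the 13, 3 were called lower, against 1.12% of all genes. The 3 lower calls of this list, with 0 higher, were lost without P14 replicate 1, when its median was -0.42 in place of -1.07, and those of Rag1 and Igll1 without either P21 array as well.

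The cell cycle list showed the same array. Of its 41 genes 40 had a negative change, where 11053 of all 18193 genes had a positive one. The median was -1.02 and 0 were called by limma. An unadjusted p under 0.05 by limma was reached by 26, against 21.4% of all probe sets. That share, here and below, includes dimmer probe sets and those without a symbol, while list members are brightest probe sets. The share over brightest probe sets alone was not taken. The list median was 6.63 and 6.66 on the P21 arrays, and 8.51 and 7.18 on the P14 arrays. Top2a, the topoisomerase of dividing cells, measured 7.30 and 7.54 at P21 and 10.10 and 8.25 at P14, and Mki67, the nuclear antigen of cycling cells, measured 9.10 and 9.05 at P21 and 11.49 and 9.45 at P14. Without P14 replicate 1 the list's median was -0.35. Depdc1a and Esco2, genes of mitosis and of sister chromatid cohesion outside the list, were called lower by 2.27 and 2.00, and both calls were lost without that array or without either P21 array. At P21 Esco2 lay in the lowest 25% of values on both arrays.

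Neutrophil and marrow myeloid genes had a median of 7.32 and 8.26 on the P21 arrays, against 10.56 and 8.04 on the P14 arrays, so that P21 replicate 2 lay above P14 replicate 2. Of the 13, 0 were called by limma and 2 had an unadjusted p under 0.05, as did 21.4% of all probe sets. Without P14 replicate 1 their median change was 0.10 in place of -1.32. Stfa3 and Stfa2l1, stefins of myeloid cells, showed the largest falls of all named genes. Stfa3 measured 4.97 and 5.47 at P21, against 11.24 and 9.01 at P14 (log2 change -4.91, SE 0.61, adjusted p = 0.00837), and Stfa2l1 fell by 4.47. The stefins are a family of close copies, so their signals may not be separate. Of 20 macrophage genes 18 had a negative change, where 11053 of all 18193 genes had a positive one. Cd68, a lysosomal protein of phagocytes, was the single call, at 6.72 and 6.74 at P21 and 8.0 and 7.64 at P14. That call was lost without each of the 4 arrays except P14 replicate 2. How far marrow in the dissected tissue bears on the bone, B cell and cell cycle calls was not tested.

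**Figure D5:**
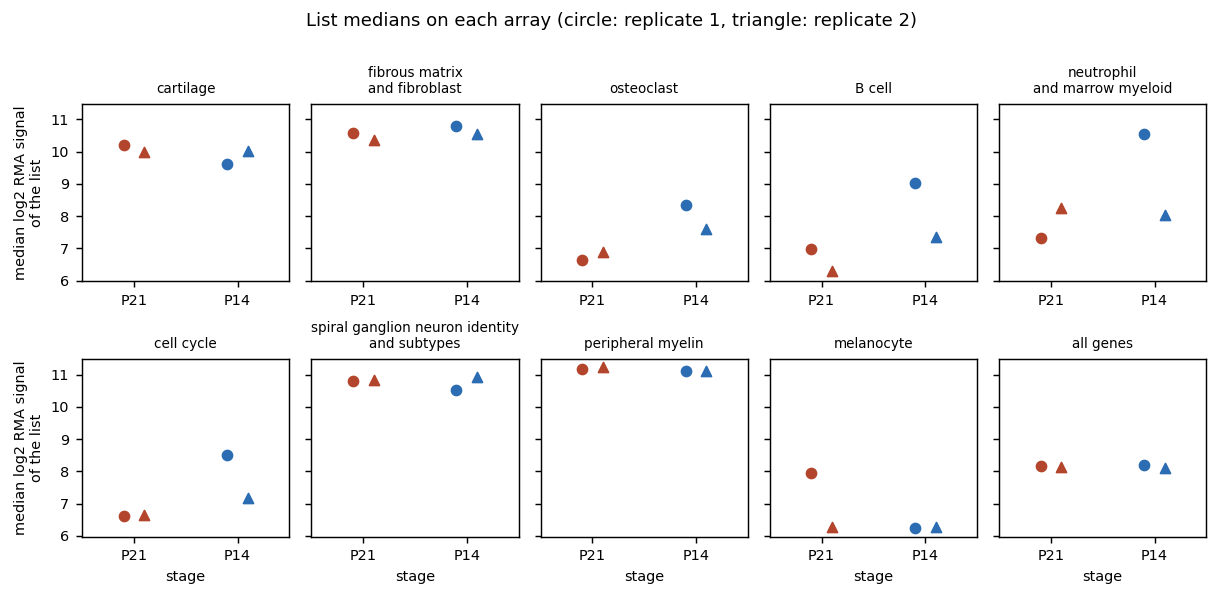
The median log2 RMA signal (y axis) of the genes of 9 lists and of all genes on each of the 4 arrays, with P21 left of P14, circles for replicate 1 and triangles for replicate 2. P14 replicate 1 was the highest array for the osteoclast, B cell, neutrophil and cell cycle lists, at 10.56 for the neutrophil list, and P21 replicate 1 was the highest for the melanocyte list, at 7.94.

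Of 29 genes of axon growth and guidance 4 were lower and 0 higher, against 1.12% and 0.956% of all genes. At an unadjusted p under 0.05 by limma there were 5 higher and 6 lower, against 21.4% of all probe sets. Dpysl3, a microtubule-binding protein of growth cones, measured 10.03 and 10.01 at P21, against 11.36 and 10.88 at P14 (log2 change -1.10, SE 0.15, adjusted p = 0.0104), and its other 2 probe sets were called lower too. Stmn2, a tubulin regulator of growing axons, Dcx, a microtubule protein of migrating and young neurons, and Sox4, a transcription factor of neural precursors, fell by 0.92, 0.73 and 0.64. The other probe sets of Stmn2 and Dcx were not called, and those of Dcx changed by 0.355, -0.975 and 0.16. The list's median change was -0.08. Gap43, the growth-cone protein that immature Schwann cells also express, measured 5.74 and 5.77 at P21 and 6.81 and 6.99 at P14. It was the 1 call among 14 genes of immature Schwann cells. Most of its decline came earlier, since its mean was 10.24 at P0 and 7.08 at P10. Gap43 and Dcx lost their call without each of the 4 arrays in turn, and Stmn2 without 3 of them. Dpysl3 lost its call without P14 replicate 1 alone, when its change was -0.86, and Sox4 without that array or P21 replicate 2.

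Myelin genes of the periphery were level except for 2. Pmp2, a fatty acid-binding protein of compact myelin, measured 7.19 and 6.08 at P21, against 8.44 and 8.69 at P14 (log2 change -1.93, SE 0.37, adjusted p = 0.027), and Gjc3, a connexin of myelinating glia, measured 6.66 and 7.13 at P21 and 8.26 and 8.28 at P14. The other 15 of 17 genes lay between -0.27 and 0.34 and were not called, among them Pmp22 (14.14 and 14.26 at P21, 14.30 and 14.37 at P14) and Egr2, the transcription factor that drives myelination by Schwann cells (11.54 and 11.81 at P21, 11.51 and 11.45 at P14). The other probe set of Gjc3 changed by -0.12 without a call. Of the 17 genes, 15 had been called higher at P10 than at P3. Each lower call was lost without 3 of the 4 arrays, Pmp2 keeping its call without P21 replicate 1 and Gjc3 without P21 replicate 2.

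Of 15 genes of oligodendrocytes, the myelinating glia of the central part of the nerve, 2 were higher, against 0.956% of all genes. Klk6, a secreted protease of mature oligodendrocytes, measured 10.07 and 9.63 at P21, against 7.58 and 7.64 at P14, a 4.72-fold rise (log2 change 2.24, SE 0.21, adjusted p = 0.00229). Hapln2, a link protein of the matrix around central nodes of Ranvier, measured 8.68 and 8.01 at P21 and 6.40 and 6.26 at P14 (log2 change 2.02, adjusted p = 0.00495). The list had 13 positive changes, where 11053 of all 18193 genes had one, and a median of 0.46, against 0.06 over all genes. Mobp and Mog, proteins of central myelin, changed by 0.70 and 0.38 without a call, as did Olig2, the transcription factor of the lineage, by 0.44. The other probe set of Hapln2 changed by 0.59, also without a call. Klk6 kept its call without P14 replicate 1 and Hapln2 did not (adjusted p = 0.0516). The list median was 0.01 on arrays shifted to the poly-A spikes and -0.12 with the Actb balance as a covariate.

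Of 15 astrocyte genes 1 was higher, against 0.956% of all genes. Atp1b2, the glial beta subunit of the sodium pump, measured 11.69 and 11.21 at P21 and 10.69 and 10.60 at P14, a call that was kept without P21 replicate 2 and lost without each of the other 3 arrays. The list median was 0.38, -0.07 when shifted to the poly-A spikes and 0.41 with the Actb balance as a covariate. Of its 15 changes 14 were positive, as were 11053 of 18193 over all genes. Gfap, a member, changed by -0.165 without a call on its brightest probe set. Another of its probe sets was called higher by 2.04, and 1 more changed by 0.06 without a call. Aldh1l1, the folate dehydrogenase used as an astrocyte marker, was outside the list and was called higher, at 9.09 and 9.22 at P21 and 8.08 and 7.97 at P14. It is named after its value was seen. Its call was lost without P14 replicate 1 or either P21 array, and its other probe set was not called. Among the largest rises were also Etnppl, an enzyme of phosphoethanolamine breakdown (9.80 and 9.63 at P21, 8.03 and 8.46 at P14), and Grm3, a metabotropic glutamate receptor (7.27 and 7.68 at P21, 6.02 and 6.02 at P14).

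The lists of spiral ganglion neuron, synapse, firing and node genes gave no calls, unlike that of axon growth. Among 22 genes of spiral ganglion neurons, 27 of synapses, 20 of channels and pumps of firing and 13 of the node of Ranvier, 0 were called in either direction by limma, and the list medians were -0.01, 0.11, 0.06 and 0.05, near the 0.06 of all genes. At an unadjusted p under 0.05 by limma stood 4, 4, 2 and 3 genes of these lists, against 21.4% of all probe sets. Pvalb, a calcium-binding protein of spiral ganglion neurons, measured 12.98 and 13.07 at P21 and 13.05 and 13.17 at P14, and Slc17a6, a vesicular glutamate transporter, measured 11.01 and 11.65 at P21 and 11.57 and 11.46 at P14. The largest differences went with a wide spread between the P21 arrays. Glra1, a glycine receptor subunit of brainstem and spinal cord, measured 4.68 and 7.61 at P21 and 4.56 and 4.54 at P14, and Neurod1, a transcription factor of neuron formation that cerebellar granule cells keep, measured 6.91 and 9.06 at P21 and 9.61 and 10.16 at P14, where its P10 mean had been 6.21.

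Genes of cerebellum and brainstem neurons were present on the 4 arrays in unequal amounts. Gabra6, the GABA receptor subunit of granule cells, measured 6.92 and 9.92 at P21 and 8.50 and 9.23 at P14, and Cbln3, a granule cell cerebellin, measured 6.38 and 8.42 at P21 and 7.77 and 8.10 at P14. En2, a homeobox gene of the midbrain and cerebellum, was the 1 of 13 called, lower at P21 (5.26 and 5.35) than at P14 (6.0 and 6.35), and the list medians were 6.40 and 6.52 at P21 and 7.77 and 7.29 at P14. Without P14 replicate 1 the median change was -0.08, in place of -0.18, and no member was called. Cbln4, a secreted synapse organizer, was called higher with 8.73 and 9.26 at P21 and 6.79 and 7.35 at P14. That call was lost without P14 replicate 1 or either P21 array. The part of such tissue in the neuronal values was not tested.

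Of 14 clock genes 3 were higher at P21 and 0 lower, against 0.956% and 1.12% of all genes. Per1, which stood in the glucocorticoid list, was higher too. Per1, a repressor of the circadian clock that glucocorticoids also induce, measured 10.03 and 9.62 at P21, against 8.52 and 8.26 at P14 (log2 change 1.43, SE 0.16, adjusted p = 0.00497), and kept its call without each of the 4 arrays. Per2, its relative, measured 8.22 and 8.0 at P21 and 7.04 and 7.18 at P14, and Nr1d1, the nuclear receptor that represses Arntl, measured 7.68 and 8.21 at P21 and 6.84 and 6.90 at P14. Ciart, a repressor of the clock activators, rose by 0.59. Arntl, the activator, measured 7.93 and 8.22 at P21 and 8.46 and 8.43 at P14, without a call. The list median was 0.21, or -0.24 on arrays shifted to the poly-A spikes, and without P14 replicate 1 no member of the clock list was called. The hour at which tissue was taken is not given in the sources used here.

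Clock activators bind the E-box CACGTG, and the promoter windows of Per1 and Ciart are shown because they hold it. RefSeq windows of GRCm38.p6, from 250 bases before to 50 after the start of a transcript, matched 14 clock genes. These are the clock list with Per1 added and without Per2, a called gene that had no window and was not assessed. The motif is its own reverse complement, so a match lies on both strands, and is in capitals here. The Per1 window is chr11:69098699-69098998 on the + strand, 1 of 2 for that gene, and the Ciart window is chr3:95882179-95882478 on the - strand.
Per1: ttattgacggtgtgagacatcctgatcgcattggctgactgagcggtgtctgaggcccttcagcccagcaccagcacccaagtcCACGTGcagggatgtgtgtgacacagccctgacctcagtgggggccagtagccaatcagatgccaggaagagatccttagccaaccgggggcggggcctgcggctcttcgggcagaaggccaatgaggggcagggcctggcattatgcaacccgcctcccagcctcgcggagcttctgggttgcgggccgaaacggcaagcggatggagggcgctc
Ciart: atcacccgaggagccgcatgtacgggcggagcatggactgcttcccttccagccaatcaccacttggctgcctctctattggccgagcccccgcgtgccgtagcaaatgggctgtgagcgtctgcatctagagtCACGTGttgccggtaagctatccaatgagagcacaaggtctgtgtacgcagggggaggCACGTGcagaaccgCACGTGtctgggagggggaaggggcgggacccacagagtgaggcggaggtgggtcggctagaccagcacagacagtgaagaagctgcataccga
The Per1 window holds 1 match and the Ciart window 3. The motif occurred in a window of 5 of the 14 clock genes (35.7%), against 2187 of 27025 genes with a window (8.09%). Of the 11 clock genes with a window that were not called, 3 held it, and Nr1d1, which was called, did not.

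Glucocorticoid-responsive genes beyond Per1 were not called. Fkbp5, a chaperone partner of the glucocorticoid receptor, measured 9.62 and 11.23 at P21 and 9.62 and 9.18 at P14, with P21 replicate 2 the higher, and Mt2, a metallothionein, measured 13.07 and 13.35 at P21 and 12.47 and 12.58 at P14. The 15 genes had a median change of 0.32, or -0.13 when shifted to the poly-A spikes. In the thyroid hormone list of 8 genes, Thrsp, a thyroid-responsive protein of lipid synthesis, was higher (8.82 and 8.80 at P21, 7.81 and 7.91 at P14), and Dio2, the deiodinase that activates thyroid hormone and is needed for hearing in mice, was lower. Dio2 measured 10.48 and 10.77 at P21, against 11.86 and 11.92 at P14 (log2 change -1.26, adjusted p = 0.00495), and had been at its highest mean, 12.84, at P7. The call of Thrsp was lost without P14 replicate 1 or either P21 array, and that of Dio2 without P14 replicate 1. Other probe sets of both genes were not called.

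Of 14 genes of interferon response and MHC class I, 3 were higher and 0 lower, against 0.956% and 1.12% of all genes. Ifit1, which binds foreign RNA, measured 9.10 and 9.70 at P21, against 7.58 and 7.80 at P14 (log2 change 1.71, SE 0.25, adjusted p = 0.0128), and Oasl2 and Rtp4, further interferon-induced proteins, rose by 1.26 and 0.88. Ifit3 and Usp18, induced by interferon as well, changed by 1.11 and 0.97 without a call, and P21 replicate 2 exceeded P21 replicate 1 in both. The class I genes B2m and H2-D1 changed by 0.00 and -0.01. The 3 calls were lost without P14 replicate 1, Rtp4 also without either P21 array, and without P14 replicate 1 the list median was 0.57, against 0.54 with all arrays.

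Single genes of other tissues were among the largest rises. Prg4, the lubricating proteoglycan of joints, measured 11.06 and 11.81 at P21, against 9.30 and 8.28 at P14 (log2 change 2.65, SE 0.40, adjusted p = 0.0137), and Prelp, a matrix proteoglycan that anchors basement membranes, measured 9.45 and 9.68 at P21 and 7.99 and 8.04 at P14. Ttr, the thyroxine carrier made by choroid plexus, measured 11.98 and 12.64 at P21, against 9.61 and 10.17 at P14 (log2 change 2.42, adjusted p = 0.00543), and its other 3 probe sets were called higher as well. Folr1, another choroid plexus gene, measured 5.53 and 5.81 at P21 and 5.76 and 5.61 at P14, and Ttr was the single call among 12 genes of meninges and choroid plexus. Dao, D-amino acid oxidase of glia, measured 6.55 and 6.42 at P21, and its P14 values of 4.68 and 4.85 lay in the lowest 25%, as did all its earlier stage means (log2 change 1.72, SE 0.11, adjusted p = 0.000327).

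Further receptor genes rose, Chrna7, a nicotinic receptor subunit, by 1.37 and Gabra2, a GABA receptor subunit, by 1.40. However, 4 other probe sets of Gabra2 and the other probe set of Chrna7 were not called. Slc2a1, the glucose transporter of blood-brain and blood-nerve barriers, measured 12.24 and 12.71 at P21 and 11.61 and 11.75 at P14, and was the 1 call of 21 endothelial genes. That call was lost without each of the 4 arrays except P21 replicate 1. Hdac11 rose by 0.63 and Hdac8 fell by 0.87, the 2 calls among 11 histone deacetylases, and both were lost without P14 replicate 1 or without P21 replicate 1. Igfbp4, a binding protein of insulin-like growth factors, fell by 0.68 (11.72 and 11.64 at P21, 12.44 and 12.28 at P14), and Grb10, an imprinted adaptor that limits growth signalling, by 0.77. The call of Igfbp4 was lost without P14 replicate 1, and that of Grb10 without that array or either P21 array.

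Other parts of the ear were traced by their markers. Oc90, the main protein of otoconia, measured 5.48 and 5.72 at P21, against 7.96 and 8.47 at P14 (log2 change -2.61, SE 0.23, adjusted p = 0.00196), the end of a decline that began at a P0 mean of 13.43. Umodl1, a secreted protein related to uromodulin, measured 6.47 and 5.49 at P21 and 8.68 and 9.59 at P14. Both kept their call without each of the 4 arrays. No member of the hair cell list (14 genes), of the supporting cell list (13) or of the lateral wall list (13) was called by limma. Their members with an unadjusted p under 0.05 numbered 2, 4 and 3, against 21.4% of all probe sets. Slc26a5 and Pou4f3, the motor protein of outer hair cells and a transcription factor of hair cells, stayed between 4.64 and 5.27 on the 4 arrays. A pigment and a stria marker were high on P21 replicate 1 alone, where Tyr, the first enzyme of melanin synthesis, measured 9.19 and Kcne1, a potassium channel subunit of the stria vascularis, 9.13. They measured 5.53 and 5.98 on P21 replicate 2, and no more than 5.88 on either P14 array.

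A panel of 13 genes chosen for PCR held a single call. Dcx was lower at P21 (6.66 and 6.57) than at P14 (7.29 and 7.41), and the other 12 changed by -0.30 to 0.20 without a call on their brightest probe sets. Other probe sets differed for some. For Gfap, an intermediate filament of glia, 1 was called higher by 2.04 (adjusted p = 0.00244 by limma). For Ednrb, an endothelin receptor, 1 was called lower (-1.31, adjusted p = 0.0474 by limma). Among the 12 genes without a call on their brightest probe sets was Sox2, a transcription factor of neural and glial precursors (11.35 and 11.27 at P21, 10.97 and 11.26 at P14). So were Ngfr, the low-affinity neurotrophin receptor (8.69 and 9.42 at P21, 9.14 and 9.08 at P14), and Nes and Vim, intermediate filaments of immature cells.

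The interval from P10 to P14 uses the same P14 arrays and is shorter than the 7 days from P14 to P21, so the counts and changes are for unlike spans. Between P14 and P10 limma called 0 probe sets, with 3472 at an unadjusted p under 0.05 (7.71%) and a lowest adjusted p of 0.0866. Between P21 and P14, 9636 reached that unadjusted level (21.4%). Col2a1 changed by -0.19 between P14 and P10 and by -1.81 between P21 and P14, Klk6 by 1.06 and 2.24, Per1 by 0.53 and 1.43, and Oc90 by -1.47 and -2.61. Between P10 and P3, an interval of 7 days as well and with no shared array, 7759 probe sets were called (17.2%).

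Of the 174 genes higher at P21, 43 had also been higher at P10 than at P3 (24.7% of them, against 10.5% of all genes, and 2.26% of the genes higher at P10) and 19 had been lower (10.9%, against 10.4%). Of the 204 lower genes, 49 had been higher at P10 than at P3 (24%, against 10.5%, and 2.57% of the genes higher at P10) and 34 lower (16.7%, against 10.4%). The mean at P21 was the highest of the 6 stages for 158 of the 174 higher genes, and the lowest of the 6 for 166 of the 204 lower genes. The lower genes had their highest mean at P0 in 66 cases and at P7 in 63. These genes were selected for a P21 mean above or below that of P14. That favours P21 as their extreme stage and keeps it from being the opposite one. The same counts were not taken over all genes, so they only describe the 2 lists.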

How the data were processed

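RNA from 12 samples of CBA/CaJ mouse modiolus, 2 at each of 6 stages and each of 1 mouse per the labels, was hybridized to Affymetrix mouse 3′ expression arrays. The deposited values are log2 RMA signals, which the authors made in Affymetrix Expression Console (RMA and MAS5 are named, without versions), and no further normalization was applied here. The number of arrays limits the precision. The table holds 45101 probe sets, of which 45037 were tested and 64 are controls; 34945 had 1 symbol, 932 several and 9160 none, and 0 columns belonged to other samples. A gene (18193 in all) was read from its brightest probe set with 1 symbol, by the mean over the 12 arrays. Stages were fitted with limma 3.58.1 in R 4.3.3 on 12 arrays in 6 groups (6 residual degrees of freedom), with Benjamini-Hochberg adjustment over all probe sets. A call needed an adjusted p under 0.05 and a change over 1.5-fold. The fit was tested on simulated data for P21 against P14 over 45037 probe sets: it recovered 6 of 67 changes of 1.5-fold, 46 of 67 of 2-fold and 66 of 66 of 4-fold, with 4 false calls. The simulated noise was independent and of the same spread on every array, without an outlying array or a shift of RNA balance. Its false calls therefore do not measure those of the real arrays.

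The genes named are the 15 genes that rose most and the 15 that fell most among those called, with arrays that do not overlap between the stages and no placeholder symbol, up to 4 called members of each of 47 gene lists (739 of 812 entries matched), or the member with the largest change where none was called, and the 13 PCR genes. Other genes named were chosen after their values were seen, as examples of a list or of a stated pattern. The members and lists were chosen with earlier results of these data known. A dim value is in the lowest 25% of all values of its arrays, since no detection calls were used. Alternatives were a replicate block, an intensity trend, robust and weighted fits, the 4 arrays alone, each of the 12 arrays left out, dim probe sets left out, 3 shifts of the arrays, RNA balance as a covariate, other fold limits, the methods' test, and, for the lists, a gene averaged over its probe sets.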

Additional observations from a re-analysis of the deposited data

Results flagged for a closer look

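Of the genes named, 18 were called between P21 and P14, called between P10 and P3 in the opposite direction, and gave an adjusted p under 0.05 by limma for the difference of the 2 intervals, each of 7 days and without a shared array. Across all genes 68 did so. Genes called in opposite directions in both intervals pass that test by their selection, as all 68 did, so its p adds nothing, and 77 genes were called in the same direction in both, 43 higher and 34 lower. They are given as the log2 change of P21 minus P14 less that of P10 minus P3.

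Genes that were lower at P21 than at P14 but higher at P10 than at P3 gave differences of -6.29 for Acp5, -6.04 for Umodl1, -5.80 for Rarres1, -5.20 for Panx3, -4.52 for Vpreb1, -4.46 for Ifitm5, -3.58 for Dio2, -3.19 for Pmp2, -3.14 for Sp7, -2.71 for Gjc3, -2.46 for Igll1, -2.29 for Col5a2, -2.0 for Col15a1, -1.77 for Cd68 and -1.67 for Kcnj8. Dio2 fell by 1.26 between P21 and P14 and had risen by 2.31 between P10 and P3.

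The opposite order, higher at P21 than at P14 but lower at P10 than at P3, gave 4.21 for Ttr, 3.50 for Grm3 and 1.96 for Fbln1. Ttr, the thyroxine carrier, rose by 2.42 in the later interval and fell by 1.78 in the earlier one. Umodl1 was the single gene of the 18 whose call between P21 and P14 held without each of the 4 arrays in turn.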

How the results depend on the processing

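The count of 1105 probe sets between P21 and P14 (325 higher and 780 lower) lay within 1.5 times of that under an intensity trend, robust eBayes, no fold limit, leaving out dim probe sets, a shift of the arrays to a common median or to ribosomal and oxidative phosphorylation genes, and the methods' test unadjusted. The 52 calls among list members did too. Array weights gave 466 calls (131 higher, 335 lower, 27 in lists) and a limit of 2-fold 386 (70 higher, 316 lower, 27 in lists). The 4 arrays alone, the methods' test with Benjamini-Hochberg adjustment and the Actb balance as a covariate each gave 0, and the Gapdh balance gave 1, a lower one, with 0 in lists. Shifting to the poly-A spikes, added after seeing the data, gave 4275 (54 higher, 4221 lower, 191 in lists). Of the 1105 calls, 265 had the other sign under the Actb balance and 188 under the Gapdh balance. Among named genes, under the Actb balance Cndp1 (-0.0602) and Thbs1 (0.027) turned sign, as did Thbs1 (0.30) and Hdac8 (0.47) under the Gapdh balance. The cause was not tested.

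Leaving out 1 of the 12 arrays gave 31 to 1750 calls, 8 to 613 higher and 23 to 1368 lower, and 7 to 114 in lists. P10 against P3 gave 5176 to 7898, P10 against P0 6720 to 8822, P14 against P10 0 to 77, and the difference of the intervals, 9498 probe sets at an adjusted p under 0.05, 4823 to 9455. That difference was 39 with the Actb balance as a covariate, and P14 against P10 was 1.

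The labels do not say that a replicate number marks a pair, and deviations of same-numbered arrays correlated over 0.1 in 6 of 15 pairs of stages (-0.12 to 0.32). With a replicate block 1168 probe sets were called (334 higher, 834 lower, 52 in lists) and 2 between P14 and P10. P14 and P21 correlated at -0.12, and with crossed numbers, added after seeing the data, 1655 were called, 1246 of them lower. With 2 arrays a stage, changes of 1.5-fold were mostly missed in simulation. A gene without a call may thus still differ by a small amount.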
